A study of Saccharomyces cerevisiae BY4741 with 5 samples.

Results

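The 56 transcripts described here encode the proteins of the small (40S) subunit of the cytosolic ribosome of Saccharomyces cerevisiae. They were chosen by name alone, as the transcripts whose gene has a standard symbol made of RPS and a digit, and were 56 of the 5090 transcripts counted. They come from 24 gene pairs, whose copies are called A and B, and from 8 single-copy genes, and lie on 14 chromosomes. The data are CRAC reads, which come from RNA fragments that were cross-linked to a tagged protein in living cells with ultraviolet light and remained attached to it through purification. The tagged protein was Ssd1, fused at the C-terminus of its genomic copy to a His–TEV–Protein A (HTP) tag in strain BY4741, with the end of the Kluyveromyces lactis SSD1 gene and a URA3 marker behind it. Ssd1–HTP heat-shocked at 42°C for 16 min gave 2 libraries, and Ssd1–HTP in exponential growth at 30°C gave 2, from the independent clones 3 and 4 at each temperature. By the paper's methods, cells for heat shock were collected on filters and moved into medium already at 42°C. The cultures at 30°C went directly to cross-linking, so filtering and transfer before it differ together with temperature. Untagged BY4741 in exponential growth at 30°C gave the single control library, and all cultures grew in SMM-Trp medium.

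Each ribosome holds 1 small subunit, which carries the mRNA and reads its codons, and its proteins are made from some of the most abundant mRNAs of a growing yeast cell. Transcription of the ribosomal protein genes is repressed for a time when yeast cells are shifted to heat. Ssd1 is an RNA-binding protein that binds mRNAs for cell wall proteins and represses translation.

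The heat-shocked libraries held 169549 (replicate 3) and 413502 (replicate 4) counts in total, those at 30°C held 176962 and 111824, and the control held 3921. Values are given as CPM, the counts after scaling each library to the same total of 1000000, for the replicates in the order 3 and 4. A single count was worth 2.42 to 8.94 CPM in the Ssd1–HTP libraries and 255 CPM in the control, and 0 counts allows up to 3 counts, which is 765 CPM in the control. Of the 56 RPS transcripts, 54 and 56 were counted at 42°C, all 56 in both libraries at 30°C, and 36 in the control. The median count of an RPS transcript was 16.5 and 54.5 after heat shock, 137 and 70.5 without it, and 4.5 in the control. The counts were not divided by the amount of each RNA in the cells, and CPM and shares are relative to the library total. Fewer transcripts per cell, less cross-linking per transcript and more reads on other RNA thus cannot be told apart. The paper describes this heat shock as one that markedly raises the total RNA binding of Ssd1. Reads that match both copies of a pair can be split or placed on 1 copy by the alignment, so the division of reads between copies is less certain than their sum.

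RPS transcripts took a smaller share of the CRAC reads after heat shock than at 30°C, and their largest share in the untagged control. Their share of all counts was 0.702% and 1.14% after heat shock, 4.68% and 4.41% at 30°C, and 8.26% in the control (95% Clopper-Pearson interval 7.42 to 9.17%, counting error only). The mean share was 0.922% ± 0.311 (SD, n = 2) at 42°C and 4.54% ± 0.197 (SD, n = 2) at 30°C, 4.93 times as large at 30°C. The temperatures did not overlap. With 2 libraries against 2, the two-sided exact permutation test cannot go below p = 0.333, which was the value here. Without the 11 RPS transcripts whose counted interval overlaps another gene, the shares were 0.569% and 0.909% after heat shock, 3.76% and 3.67% at 30°C, and 7.73% in the control.

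Both structural parts of the subunit had a smaller share after heat shock. The 22 transcripts for proteins of the head, the lobe over the mRNA channel, held 0.432% ± 0.166 at 42°C and 1.99% ± 0.0598 at 30°C (SD, n = 2 each), and 2.86% in the control. The 34 for the body and platform held 0.490% ± 0.145 at 42°C and 2.55% ± 0.137 at 30°C (SD, n = 2 each), and 5.41% in the control. Counts on head transcripts divided by those on body and platform transcripts came to 0.813 and 0.926 after heat shock, 0.768 and 0.795 at 30°C, and 0.528 in the control. The 42°C ratios lay above both 30°C ratios, with an exact permutation p of 0.333 (n = 2 each).

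Transcripts of the large (60S) subunit, 81 in all, are the most similar group in the table. They held 1.66% ± 0.501 at 42°C and 6.61% ± 0.296 at 30°C (SD, n = 2 each), and 9.16% in the control. Small-subunit counts divided by large-subunit counts were 0.540 and 0.568 after heat shock, 0.686 and 0.688 at 30°C, and 0.903 in the control. The ratio was thus lowest in the heat-shocked libraries and highest without the tag, but the exact permutation p of 42°C against 30°C was 0.333 (n = 2 each), the smallest possible.

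**Figure D1:**
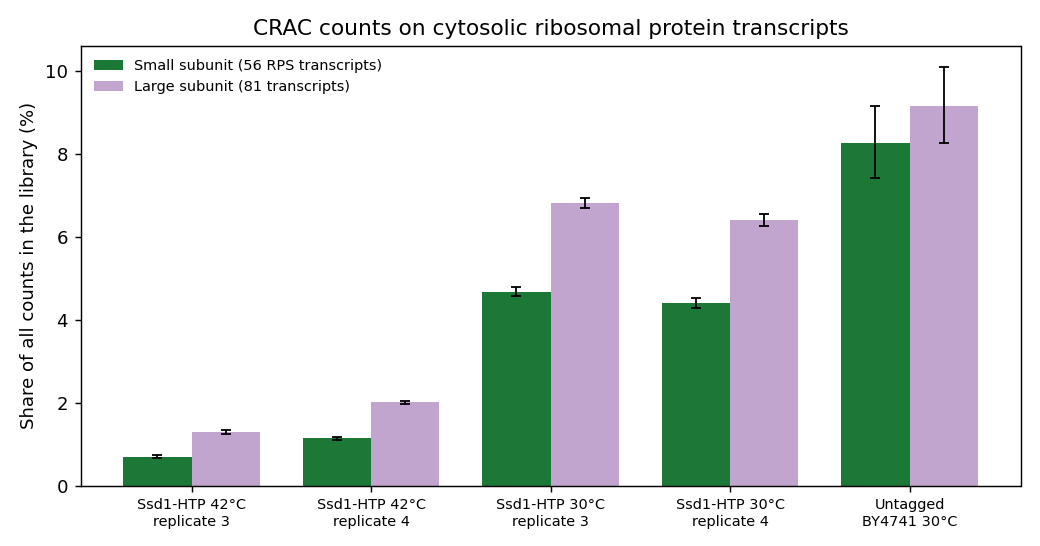
Share of all counts in each of the 5 libraries (%, vertical axis) on the 56 small-subunit and the 81 large-subunit transcripts, with exact 95% binomial intervals as error bars, which cover counting error only. The small-subunit bars stand at 0.702% and 1.14% at 42°C, below 4.68% and 4.41% at 30°C and 8.26% in the control.

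The most read RPS transcripts at 30°C were among the leading transcripts of the whole table, and at 42°C none was. At 42°C, 0 RPS transcripts were among the 100 most counted transcripts in either library, against 9 and 12 at 30°C and 11 in the control. The best-placed RPS transcript ranked 254 and 113 after heat shock, 36 and 31 at 30°C, and 10 in the control. By CPM summed over the 4 Ssd1–HTP libraries the leading members included RPS31, RPS16A, RPS20, RPS6A and RPS2. Per length, as TPM (counts divided by the length of the counted interval and scaled to the same total of 1000000), the highest means at 30°C included those of RPS31 (4236 ± 686) and RPS20 (3419 ± 1022; SD, n = 2 each), which lie within each other's spread. At 42°C, RPS20 stood first with 2121 ± 1021 TPM, ahead of RPS31 with 754 ± 31.0 TPM and RPS16A with 716 ± 149 TPM (SD, n = 2 each). RPS22B was lowest at 30°C, with 107 ± 88.6 TPM, and RPS9A lowest at 42°C, with 10.7 ± 15.1 TPM (SD, n = 2 each).

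Reads on RPS transcripts were lower after heat shock, in every member of the group by the fitted values. In the edgeR quasi-likelihood test of 42°C against 30°C over 2837 transcripts, 25 of the 56 RPS transcripts were called lower at a Benjamini-Hochberg adjusted p under 0.05 and 0 were called higher (0 in DESeq2 also), while 3.45% of all transcripts tested were called lower and 3.81% higher. All 56 had a fitted log2 fold change below 0, as did 1327 of the 2837 transcripts tested. The unadjusted edgeR p was under 0.05 for 45 of the 56, and in either direction for 577 of the 2837. The median log2 fold change was -2.53, a 5.79-fold lower level at 42°C relative to the library, with quartiles at -3.03 and -1.72. Over all transcripts tested the median was 0.13. The fitted change ranged from -4.56 for RPS27A to -0.37 for RPS28B on the log2 scale. The SD of 1.02 over the members compares with a median SE of 0.64 for a single transcript. For 37 transcripts the fitted level at 42°C was over 4-fold lower, and for 4 it was under 2-fold lower.

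In CPM, both 42°C libraries lay below both 30°C libraries for 53 of the 56, a pattern shown by 25.7% of all transcripts tested, and the groups overlapped for RPS20, RPS22B and RPS28B. The calls depended on single libraries: with the same transcripts tested, 0 RPS transcripts (and 0 of all transcripts, in either direction) were called without the 30°C library of replicate 4, 6 without the 42°C library of replicate 4 and 16 without the 42°C library of replicate 3, while the median log2 fold change stayed between -2.80 and -2.22 in every alternative run. Fitted with the clone as a block, 34 RPS transcripts were called lower. Of the head transcripts 12 of 22 were called lower, with a median log2 fold change of -2.52, and of the body and platform transcripts 13 of 34, with a median of -2.60. Among the large-subunit transcripts, 22 of 80 tested were called lower and 0 higher, with a median log2 fold change of -2.12.

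**Figure D2:**
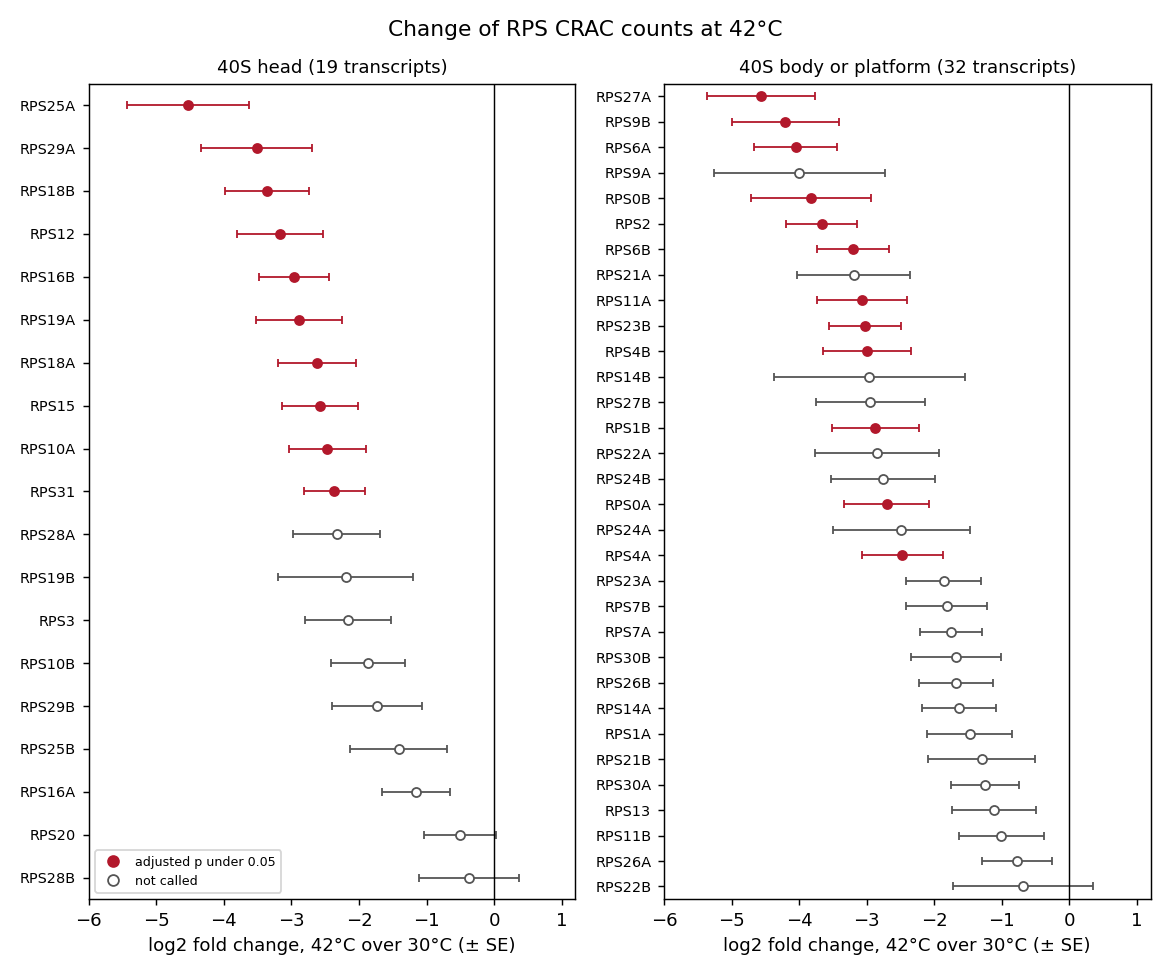
Log2 fold change of each RPS transcript, 42°C over 30°C, from the edgeR fit (horizontal axis, bars ± SE), for 19 head transcripts and 32 body or platform transcripts. Filled points are those called at an adjusted p under 0.05. All 51 points lie below 0, between -4.56 and -0.37.

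Several proteins line the channel through which the mRNA enters the subunit. RPS2 (YGL123W, chrVII:277519-278470, plus strand), whose protein holds the entry side of the channel and affects the accuracy of decoding, had 88.5 and 126 CPM at 42°C, against 1673 and 1315 CPM at 30°C (log2 fold change -3.67, SE 0.53, edgeR adjusted p = 0.00701). Its 42°C and 30°C libraries were far apart, a 12.7-fold difference in the fit. RPS3 encodes the neighbouring entry-channel protein of the head and had 100.3 and 232 CPM at 42°C, against 1023 and 626 CPM at 30°C. It did not pass the test (log2 fold change -2.16, SE 0.64, edgeR adjusted p = 0.0889), although both 42°C libraries were below both 30°C libraries. The RPS9 pair also encodes an entry-side protein that affects accuracy. RPS9B (YBR189W, chrII:604482-605573, plus strand) had 11.8 and 60.5 CPM at 42°C, against 876 and 751 CPM at 30°C, and fell with a log2 fold change of -4.20, SE 0.79 (edgeR adjusted p = 0.0189). RPS9A was the sparser copy, with 0 and 10 counts at 42°C, against 41 and 32 counts at 30°C and 0 in the control. Its estimate was as large, -4.0, SE 1.26, but on these counts it did not pass (edgeR adjusted p = 0.111), and 45 nt of its interval overlap the reading frame YPL080C.

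RPS23A and RPS23B encode the protein at the decoding centre. RPS23B had 106 and 96.7 CPM at 42°C, against 808 and 957 CPM at 30°C, and fell (log2 fold change -3.02, SE 0.53, edgeR adjusted p = 0.0150). RPS23A had 147 and 259 CPM at 42°C, against 853 and 769 CPM at 30°C, and its log2 fold change of -1.86, SE 0.56 did not pass (edgeR adjusted p = 0.0922). The copies had similar CPM at 30°C, and RPS23A had the higher CPM in both 42°C libraries. The RPS30 pair encodes a small protein close to the same centre. RPS30A had 271 and 273 CPM at 42°C, against 746 and 635 CPM at 30°C, and RPS30B had 147 and 324 CPM at 42°C, against 1169.7 and 492 CPM at 30°C. Their log2 fold changes of -1.25 and -1.68 did not pass (edgeR adjusted p = 0.208 and 0.199), with the 42°C libraries the lower ones in both. In the RPS10 pair, which encodes a protein at the entry side of the head, RPS10A had 106 and 121 CPM at 42°C, against 791 and 563 CPM at 30°C, and fell (log2 fold change -2.47, SE 0.57, edgeR adjusted p = 0.0377). RPS10B had 142 and 179 CPM at 42°C, against 616 and 653 CPM at 30°C, and its -1.87 did not pass (edgeR adjusted p = 0.0884).

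At the other end of the channel the mRNA leaves the subunit. RPS28A and RPS28B encode an exit-side protein, and in yeast the protein represses its own RPS28B mRNA through the long 3′ untranslated region of that mRNA. RPS28A had 70.8 and 106 CPM at 42°C, against 548 and 429 CPM at 30°C (log2 fold change -2.33, SE 0.65, edgeR adjusted p = 0.0722). RPS28B, with the longest 3′ trailer of the members (646 nt), had 129.8 and 501 CPM at 42°C, against 565 and 339.8 CPM at 30°C. Its libraries overlapped, with the 42°C library of replicate 4 above the 30°C library of the same replicate, and the fitted change of -0.37, SE 0.74 was the smallest of all (edgeR adjusted p = 0.871). The trailer of RPS28B holds the small frame YLR264C-A, which overlaps 117 nt of the interval.

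RPS26A and RPS26B, whose protein contacts the mRNA at the exit and is brought to the subunit by the chaperone Tsr2, stood closer between temperatures. RPS26A had 307 and 455 CPM at 42°C, against 785 and 626 CPM at 30°C, and RPS26B had 159 and 259 CPM at 42°C, against 791 and 671 CPM at 30°C. In both the 42°C libraries were lower, but neither fitted change passed (-0.78 and -1.68, edgeR adjusted p = 0.493 and 0.125), and 141 nt of RPS26A overlap the small frame YGL188C-A. RPS14A and RPS14B encode a platform protein next to the exit, and in yeast this protein represses splicing of the RPS14B transcript. RPS14A (YCR031C, chrIII:177399-178241, minus strand) had 254 and 440.1 CPM at 42°C, against 1452 and 894 CPM at 30°C (log2 fold change -1.64, SE 0.54, edgeR adjusted p = 0.125). RPS14B was far sparser, with 0 and 20 counts at 42°C, against 17 and 43 counts at 30°C and 0 in the control. In CPM its groups did not overlap, but the fitted change of -2.96, SE 1.41 did not pass (edgeR adjusted p = 0.295).

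RPS0, RPS1 and RPS21 encode proteins of the same side of the subunit. RPS0B (YLR048W, chrXII:242190-243568, plus strand) had 11.8 and 111 CPM at 42°C, against 774 and 1359 CPM at 30°C, and RPS0A had 70.8 and 135 CPM at 42°C, against 582 and 930.0 CPM at 30°C. Both copies fell, RPS0B with a log2 fold change of -3.82, SE 0.88 (edgeR adjusted p = 0.0377) and RPS0A with -2.71, SE 0.63 (edgeR adjusted p = 0.0380). RPS1B had 59.0 and 155 CPM at 42°C, against 814 and 966 CPM at 30°C, and fell (log2 fold change -2.87, SE 0.65, edgeR adjusted p = 0.0355), and its groups were well apart. RPS1A had 136 and 254 CPM at 42°C, against 774 and 411 CPM at 30°C, closer together in replicate 4, and did not pass (-1.48, SE 0.63, edgeR adjusted p = 0.235). RPS21 encodes a partner of Rps0 on the ribosome. RPS21A had 17.7 and 104 CPM at 42°C, against 519.9 and 814 CPM at 30°C, and RPS21B had 88.5 and 457 CPM at 42°C, against 995 and 519 CPM at 30°C. The 42°C libraries were lower in both, with changes that did not pass (-3.19 for RPS21A and -1.30 for RPS21B, edgeR adjusted p = 0.0605 and 0.449).

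Some of the other head transcripts had copies that were called and copies that were not. RPS25A (YGR027C, chrVII:534063-534805, minus strand), whose protein is needed for translation from some internal ribosome entry sites, had 5.90 and 38.7 CPM at 42°C, against 407 and 912 CPM at 30°C. It was one of the largest falls, 23.0-fold in the fit (log2 fold change -4.53, SE 0.90, edgeR adjusted p = 0.0231), while RPS25B had 76.7 and 193 CPM at 42°C, against 311 and 501 CPM at 30°C, and did not pass (-1.41, edgeR adjusted p = 0.330). RPS29A had 17.7 and 58.0 CPM at 42°C, against 656 and 358 CPM at 30°C, and fell (log2 fold change -3.51, SE 0.82, edgeR adjusted p = 0.0394), and 16 nt of its interval overlap ECM19 on the same strand. RPS29B had 82.6 and 220.1 CPM at 42°C, against 519.9 and 608 CPM at 30°C, and did not pass (-1.73, edgeR adjusted p = 0.188).

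The proteins of the head close to the tRNAs are encoded by RPS15, RPS16A, RPS16B, RPS18A and RPS18B. RPS15, for a protein that is also needed to export the pre-40S particle from the nucleus, had 147 and 249 CPM at 42°C, against 949 and 1672 CPM at 30°C, and fell (log2 fold change -2.58, SE 0.56, edgeR adjusted p = 0.0322). RPS18A and RPS18B both fell: RPS18B had 47.2 and 82.2 CPM at 42°C, against 797 and 689 CPM at 30°C (log2 fold change -3.36, SE 0.62, edgeR adjusted p = 0.0182), and RPS18A had 100.3 and 114 CPM at 42°C, against 548 and 885 CPM at 30°C (log2 fold change -2.62, SE 0.58, edgeR adjusted p = 0.0336). For both copies the temperatures were well apart. Of the RPS16 copies, 1 was called. RPS16B had 129.8 and 116 CPM at 42°C, against 909.8 and 1136 CPM at 30°C, and fell (log2 fold change -2.96, SE 0.51, edgeR adjusted p = 0.0147). RPS16A (YMR143W, chrXIII:551907-552986, plus strand) had 537 and 774 CPM at 42°C, against 2029 and 1099.9 CPM at 30°C, and its change of -1.15, SE 0.50 did not pass (edgeR adjusted p = 0.245).

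RPS12, for a protein of the beak of the head, had 70.8 and 210.4 CPM at 42°C, against 1418 and 1467 CPM at 30°C, and fell (log2 fold change -3.17, SE 0.64, edgeR adjusted p = 0.0235); 64 nt of its interval overlap RAD17 on the other strand. RPS31 (YLR167W, chrXII:498890-499453, plus strand) encodes ubiquitin fused to its ribosomal protein, from which the ubiquitin is cut off. It had 336 and 382 CPM at 42°C, against 2215 and 1744 CPM at 30°C, and fell (log2 fold change -2.36, SE 0.45, edgeR adjusted p = 0.0192). RPS19A, for a head protein needed for maturation of the subunit, had 76.7 and 53.2 CPM at 42°C, against 519.9 and 492 CPM at 30°C, and fell (log2 fold change -2.89, SE 0.64, edgeR adjusted p = 0.0336). RPS19B had 11.8 and 167 CPM at 42°C, against 582 and 385 CPM at 30°C, with the 42°C libraries far from each other, and its change of -2.20, SE 1.00 did not pass (edgeR adjusted p = 0.268). RPS20 (YHL015W, chrVIII:75374-75834, plus strand), whose protein is ubiquitylated on stalled ribosomes, had one of the smallest fitted changes. It had 525 and 1144 CPM at 42°C, against 1034 and 1574 CPM at 30°C, so that the groups overlapped (log2 fold change -0.50, SE 0.54, edgeR adjusted p = 0.712).

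In the body, RPS6A and RPS6B encode the phosphorylated protein whose kinase Ypk3 acts downstream of the TORC1 complex. RPS6A (YPL090C, chrXVI:377152-378424, minus strand) had 53.1 and 145 CPM at 42°C, against 1882 and 1887 CPM at 30°C (log2 fold change -4.05, SE 0.62, edgeR adjusted p = 0.00936). RPS6B had 147 and 89.5 CPM at 42°C, against 966 and 1306 CPM at 30°C (log2 fold change -3.20, SE 0.53, edgeR adjusted p = 0.0122). Both copies fell and their groups were well apart. RPS27A (YKL156W, chrXI:158595-159443, plus strand) had 11.8 and 19.3 CPM at 42°C, against 475 and 385 CPM at 30°C. This was the largest fall of all members, 23.6-fold in the fit (log2 fold change -4.56, SE 0.80, edgeR adjusted p = 0.0150), and rests on 2 and 8 counts at 42°C, with 79 nt of the interval overlapping RSM22 on the other strand. RPS27B had 23.6 and 114 CPM at 42°C, against 701 and 537 CPM at 30°C, and did not pass (-2.94, edgeR adjusted p = 0.0688).

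RPS4A, RPS4B and RPS11A, for proteins of the body that bind 18S rRNA, also fell. RPS4B had 53.1 and 128 CPM at 42°C, against 712 and 939 CPM at 30°C (log2 fold change -3.0, SE 0.65, edgeR adjusted p = 0.0317), and RPS4A had 165 and 99.2 CPM at 42°C, against 509 and 1028 CPM at 30°C (log2 fold change -2.47, SE 0.60, edgeR adjusted p = 0.0463). RPS11A had 94.4 and 53.2 CPM at 42°C, against 836 and 429 CPM at 30°C (log2 fold change -3.06, SE 0.66, edgeR adjusted p = 0.0317). The 42°C and 30°C libraries did not overlap in any of the 3. The other copy of RPS11A, RPS11B, had 165 and 387 CPM at 42°C, against 763 and 456 CPM at 30°C. Its fitted change of -1.0 on the log2 scale did not pass (edgeR adjusted p = 0.470), and its libraries of replicate 4 were close.

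RPS7A, RPS7B, RPS13, RPS22A, RPS22B, RPS24A and RPS24B, also body transcripts, were not called. The RPS7 pair encodes a protein that is ubiquitylated by Not4. RPS7A had 354 and 295 CPM at 42°C, against 1068 and 1243 CPM at 30°C, and RPS7B had 201 and 99.2 CPM at 42°C, against 526 and 563 CPM at 30°C. Neither passed, with log2 fold changes of -1.75 for RPS7A and -1.82 for RPS7B (edgeR adjusted p = 0.0603 and 0.122), although neither pair of groups overlapped. RPS13, single copy and for a protein that faces the large subunit, had 189 and 416 CPM at 42°C, against 915 and 519 CPM at 30°C (log2 fold change -1.11, SE 0.62, edgeR adjusted p = 0.390). All 4 of its libraries were separate by temperature, but the 42°C and 30°C libraries of replicate 4 were close. RPS24A had 17.7 and 84.6 CPM at 42°C, against 519.9 and 143 CPM at 30°C, a wide spread in both groups, and RPS24B had 136 and 31.4 CPM at 42°C, against 616 and 492 CPM at 30°C (log2 fold changes -2.49 and -2.76, edgeR adjusted p = 0.212 and 0.0735). RPS22A had 100.3 and 14.5 CPM at 42°C, against 435 and 358 CPM at 30°C, with the 42°C library of replicate 4 lowest (log2 fold change -2.85, SE 0.92, edgeR adjusted p = 0.120). RPS22B (YLR367W, chrXII:855837-857371, plus strand), which has a leader of 605 nt and holds the snoRNA SNR44 downstream of its start codon, had 64.9 and 87.1 CPM at 42°C, against 56.5 and 215 CPM at 30°C. Its groups overlapped (log2 fold change -0.69, SE 1.04, edgeR adjusted p = 0.824), and its 30°C library of replicate 3 was the lowest of the 4. The SNR44 sequence covers 211 nt of the 1535 nt in which reads were counted, and reads from the snoRNA cannot be told from reads of the mRNA in these counts.

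**Figure D3:**
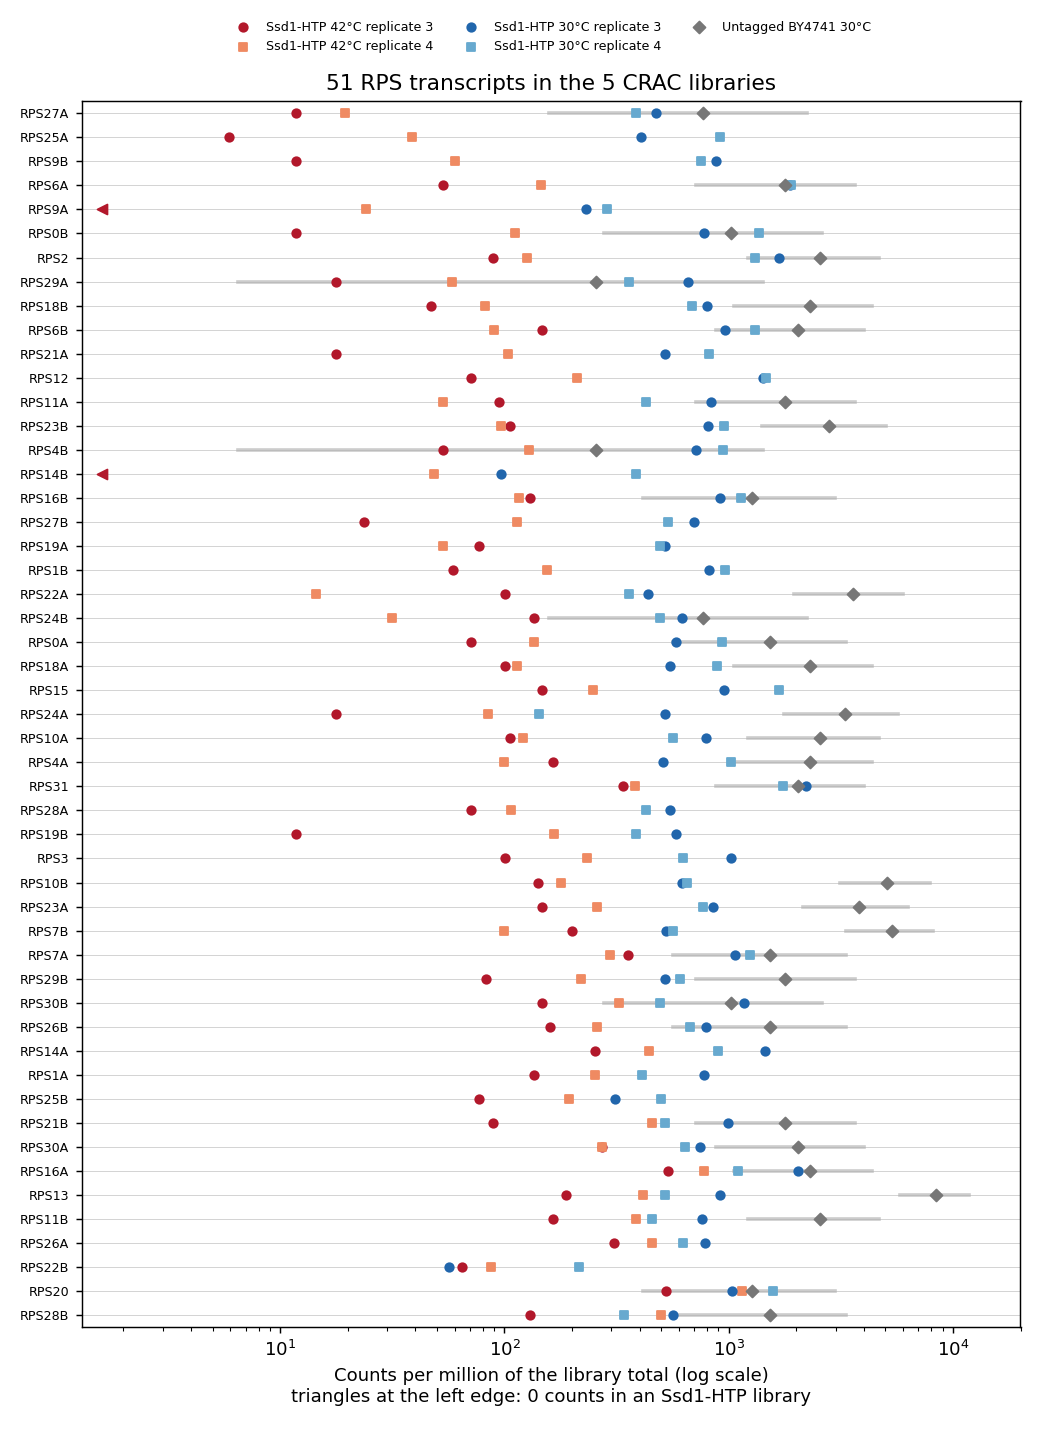
CPM (horizontal axis, log scale) for 51 RPS transcripts in the 5 libraries, ordered by the fitted change between 42°C and 30°C, with the exact 95% binomial interval of the control in grey. Triangles at the left edge are 0 counts in an Ssd1–HTP library, and the 18 transcripts without a diamond had 0 counts in the control. The 42°C points lie left of both 30°C points in 48 of the 51 rows.

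The size of the change differed between the libraries of the clones, with 1 library of each clone at each temperature. Both clones had a lower CPM at 42°C than at 30°C for 54 of the 56. RPS22B in clone 3 and RPS28B in clone 4 were the exceptions, and the count over all transcripts was not made. The median log2 ratio of CPM, 42°C over 30°C with 0.5 added to each count, was -2.82 in clone 3 and -2.54 in clone 4. The ratio was the lower in clone 3 for 42 of the 56. Neither was taken over all transcripts, so a difference of whole libraries cannot be told from one of RPS transcripts. Across the 56 transcripts the ratios of the clones had a Pearson's r of 0.434 and a Spearman's rho of 0.437, a description over transcripts that share their libraries. RPS19B had the log2 ratios -5.31 and -1.21 in clones 3 and 4, and RPS22A -2.09 and -4.53, so that the order of these members differed between clones. Log2 CPM of the members, compared across the 56, had a Pearson's r of 0.674 between the 42°C libraries and 0.646 between the 30°C libraries, against 0.391 to 0.538 between temperatures and 0.194 to 0.486 between the control and the others.

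Each of the 24 gene pairs gave an A to B ratio within each library, which does not depend on the scaling between libraries. The log2 ratio of A to B counts (0.5 added to each) was averaged over the 2 libraries of a temperature, so that opposite signs cancel. The median size of this mean over the pairs was 1.06 at 42°C and 0.35 at 30°C. Some pairs were unequal at 30°C too, with means of 2.54 for RPS14, 1.80 for RPS22, -1.64 for RPS9 and 1.08 for RPS7. Both copies were called lower at 42°C in 4 pairs (RPS0, RPS4, RPS6 and RPS18), one copy in 12 and neither in 8, but no call of a difference between copies follows from this. The ratios at 42°C and at 30°C did not overlap in 15 of the 24 pairs, and changed in the same direction in both clones in 16. Neither count was made over other pairs of transcripts, so neither can be called a trait of RPS pairs. Separation of 2 libraries from 2 has an exact permutation p of 0.333 by itself. The exact permutation p was 0.333 or above in every pair (n = 2 each) and 0.533 or above after adjustment over the 24, and the counts behind the 42°C ratios were low.

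The RPS14, RPS9, RPS16 and RPS21 pairs had the largest mean ratios over the 4 Ssd1–HTP libraries. The RPS14 log2 ratios were 6.44 and 3.15 at 42°C and 3.88 and 1.21 at 30°C, so that RPS14A had more reads than RPS14B in every library, by an amount that varied widely. The RPS9 ratios were -2.32 and -1.28 at 42°C and -1.91 and -1.38 at 30°C, with RPS9B the more read copy throughout and no separation by temperature. The RPS16 ratios were 2.02 and 2.72 at 42°C and 1.15 and -0.05 at 30°C, and the excess of RPS16A was larger in both heat-shocked libraries. The RPS27 and RPS7 pairs also kept 1 sign in all 4 libraries, with RPS27B and RPS7A ahead.

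The largest changes of the ratio between temperatures were those of the RPS25, RPS22, RPS14 and RPS21 pairs. In the RPS25 pair the log2 ratio was -3.17 and -2.29 at 42°C and 0.39 and 0.86 at 30°C, a change of -3.35 (exact permutation p = 0.333, n = 2 each), so that RPS25B was the more read copy in both heat-shocked libraries and RPS25A in both libraries at 30°C. In the RPS22 pair it was 0.61 and -2.49 at 42°C and 2.88 and 0.73 at 30°C, a change of -2.75 that includes any reads of SNR44 on RPS22B. In the RPS21 pair it was -2.15 and -2.12 at 42°C and -0.93 and 0.65 at 30°C, a change of -1.99, with RPS21B ahead at 42°C in both libraries and the 30°C libraries on either side of 0. The RPS14 change of 2.25 was smaller than the spread between its replicates, and its groups overlapped.

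**Figure D4:**
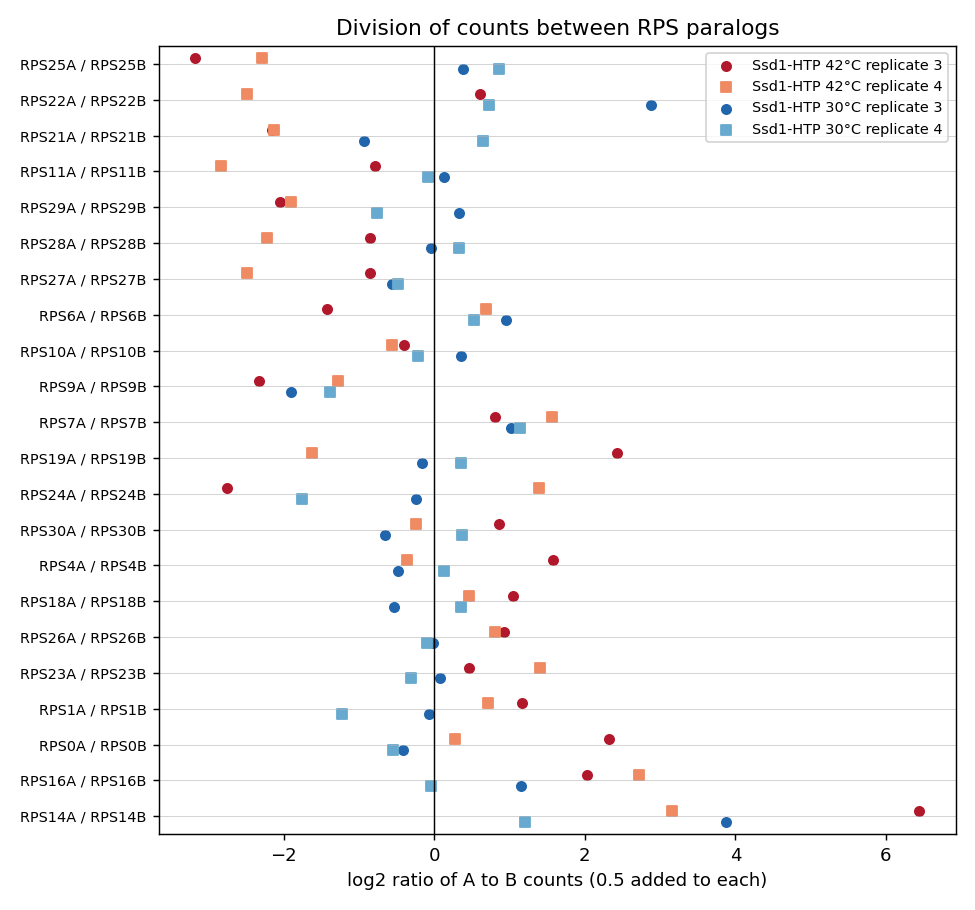
Log2 ratio of A to B counts, with 0.5 added to each (horizontal axis), for 22 RPS gene pairs in the 4 Ssd1–HTP libraries, ordered by the change between temperatures. The RPS25 points lie at -3.17 and -2.29 at 42°C and at 0.39 and 0.86 at 30°C, on opposite sides of 0.

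The control library was set against Ssd1–HTP to ask which reads exceed those of cells without the tag. Relative to the total counts of each library, no RPS transcript was called higher in Ssd1–HTP at either temperature when all 5 libraries were fitted, in edgeR or in DESeq2. Of the 56, 17 were called lower at 42°C than in the control and 0 higher, while 3.56% of all 2837 transcripts tested were called lower and 1.23% higher. At 30°C, 3 were called lower and 0 higher, while 0.811% of all transcripts were called lower and 0.423% higher. A transcript at 0 in the control cannot be lower than it. Of the RPS transcripts 36 of 56 had counts there, against 560 of the 5090 transcripts in all. The shares called lower are thus not a comparison of like with like. The count of 3 changed with each Ssd1–HTP library left out, with 0 called lower without either one of the 30°C libraries and 6 without either one of the 42°C libraries, and a fit of only the 3 libraries compared gave 7 lower and 2 higher. Both comparisons share the single control library, whose spread was taken from the Ssd1–HTP libraries, and in the first the temperature differs together with the tag.

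The 3 called lower at 30°C, none of which passed without either one of the 30°C libraries, were among the most read RPS transcripts of the control. RPS13 had 189 and 416 CPM at 42°C, against 915 and 519 CPM at 30°C and 33 counts or 8416 CPM in the control, where it ranked 10 in the whole table (log2 fold change 30°C over control -3.54, edgeR adjusted p = 0.0412). RPS7B had 201 and 99.2 CPM at 42°C, against 526 and 563 CPM at 30°C and 21 counts in the control (-3.30, edgeR adjusted p = 0.0490), and RPS10B had 20 counts in the control (-3.01, edgeR adjusted p = 0.0459). All 4 Ssd1–HTP libraries were below the control for these 3. The same 3 were called lower at 42°C, with log2 fold changes over the control of -4.78 for RPS13, -5.18 for RPS7B and -4.98 for RPS10B.

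The other 14 called lower at 42°C than in the control included RPS2, RPS4A, RPS6A, RPS6B, RPS10A, RPS11A, RPS18A, RPS18B, RPS22A, RPS23A, RPS23B, RPS24A and RPS27A. The control counts of those named were 10 for RPS2 and RPS10A, 9 for RPS4A, RPS18A and RPS18B, 7 for RPS6A and RPS11A, 8 for RPS6B, 14 for RPS22A, 15 for RPS23A, 11 for RPS23B, 13 for RPS24A and 3 for RPS27A. Their log2 fold changes over the control ran from -6.08 for RPS22A to -4.10 for RPS6A (edgeR adjusted p = 0.0157 and 0.0287). The call of RPS27A rests on only 2 and 8 counts at 42°C and 3 in the control. RPS6A was the one of those named whose 30°C mean was no lower than the control, with a ratio of CPM of 1.06 at 30°C and 0.0555 at 42°C. These directions hold for total counts as library sizes. With TMM scaling, 0 of the 17 and 0 of the 3 were called lower, and 1 and 4 RPS transcripts were called higher at 42°C and at 30°C.

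Over the 30 members with more than 3 control counts, the median ratio of CPM to the control was 0.0592 at 42°C (0.0154 to 0.654, all 30 below 1) and 0.346 at 30°C (0.0852 to 1.06, 27 below 1). Choosing members by their control counts favours ratios below 1 by itself. The ratios were not taken over all transcripts, so they do not show a trait of RPS transcripts. The median fitted log2 fold changes of these 30 were -4.03 at 42°C and -1.53 at 30°C with total counts, and -1.08 and 1.27 with TMM, which shifted them by 2.95 and 2.79, so that the direction at 30°C turned with the scaling. A further 6 members had 1 to 3 control counts and 20 had 0. The 20 include both copies of the RPS1, RPS9, RPS14, RPS19 and RPS25 pairs. In 13 pairs both copies were counted in the control, and the RPS21, RPS22, RPS26, RPS27 and RPS28 pairs were split.

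For 6 members at 0 in the control, the mean at 30°C exceeded the 765 CPM that 3 counts stand for. On total counts, the 30°C mean was 1.89 times this limit of 3 counts for RPS12, 1.71 times for RPS15 and 1.53 times for RPS14A. None of these 3 was called higher than the control in the edgeR fit of all 5 libraries. The 30°C means of the other 3, RPS1B (889.8 CPM), RPS3 (824 CPM) and RPS9B (814 CPM), lay below 940.4 CPM, the upper end of the exact 95% binomial (Clopper-Pearson) interval for 0 control counts, so no excess is given for them. RPS12 and RPS15 were also the 2 whose 30°C libraries both lay above the control interval of the same transcript. For RPS14A, the 30°C library of replicate 4 (894 CPM) lay below 940.4 CPM, so its excess rests on replicate 3. At 42°C the mean of no member at 0 in the control exceeded the limit of 3 counts. Both 42°C libraries lay below the control interval for 31 of the 36 members counted in the control, and both 30°C libraries for 15. The 20 members at 0 there have an interval that starts at 0, so they cannot lie below it. These counts were not made over all transcripts.

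The 5′ leaders of the 56, from the mapped transcript start to the start codon with any intron included, had a median of 28 nt (12 to 605 nt), against 24 nt over the 81 large-subunit transcripts and 47 nt over the 4212 transcripts with mapped ends. All 56 had mapped ends. In 9 members the leader was over 100 nt, and these included RPS22B and both copies of the RPS25, RPS26 and RPS29 pairs. Across the 56, Pearson's r between the fitted change and the log10 of leader length was 0.07, a description over transcripts that share their libraries. The median trailer was 111 nt, against 121 nt, and the median counted length 936 nt, against 1404.5 nt.

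Other genes linked to the small subunit were mostly too sparse to test. The list of 15 holds ASC1, assembly factors and chaperones, and also YPK3 and STM1. Of these 15, 6 had enough counts to be tested, and 0 were called lower at 42°C and 1 higher. The one called higher was YAR1, which encodes the chaperone that protects newly made Rps3. It had 84 and 562 counts at 42°C, against 10 and 4 at 30°C and 0 in the control (log2 fold change 4.42, SE 0.77, edgeR adjusted p = 0.015). Both 42°C libraries were far above both 30°C libraries for YAR1. ASC1, for a scaffold protein bound to the head, had 47 and 220 counts at 42°C, against 222 and 118 at 30°C and 39 in the control (log2 fold change -1.38, SE 0.53, edgeR adjusted p = 0.185). PNO1, for a factor that acts on the pre-40S platform, had 0 and 3 counts at 42°C, against 23 and 32 at 30°C and 0 in the control (log2 fold change -5.21, SE 1.38, edgeR adjusted p = 0.0639). Of 7 regulators of ribosomal protein genes, 4 were tested and 0 called, with log2 fold changes of -0.89 for IFH1, -0.34 for HMO1, -0.19 for SFP1 and -0.17 for SCH9.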

How the data were processed

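The deposited values are counts of CRAC reads per transcript, whole numbers without normalization. The authors removed adapters with flexbar, split libraries by barcode, collapsed PCR duplicates, aligned reads with Novoalign and counted them with multiBamCov from bedtools, each library separately. The submitters' processing notes give the build sacCer3, and no source used here says whether strand was used in counting. Transcript ends were mapped for 4212 transcripts and set to default lengths for 878. All 5090 loci were matched to the RefSeq R64 gene table for symbols and coding starts.

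The members, lists and tests were chosen with earlier results of these data known. The 2837 transcripts that averaged 10 counts or more in the 4 Ssd1–HTP libraries, all 56 members among them, were tested with edgeR 4.0.16 in R 4.3.3 (quasi-likelihood, Benjamini-Hochberg, threshold 0.05), with TMM normalization for 42°C against 30°C, and with total counts and all 5 libraries for comparisons with the control. The SE is the log2 fold change divided by the square root of F. Intervals and the limit of 3 counts cover counting error only. Single values were compared by exact permutation (scipy 1.17.1). DESeq2 1.42.0, other scalings, count minimums, the clone block and each library left out were alternatives. The tests were tried on simulated data.

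Replicate numbers pair the samples, since a number marks 1 clone that gave a sample at 30°C and a sample at 42°C. The difference between clones had a Pearson's r of -0.02 between temperatures over the 2837 transcripts and of 0.06 over the members. Members named with full values were those with the highest CPM summed over the Ssd1–HTP libraries, the largest called changes, those called against the control, the pairs with the largest ratios or changes of ratio and those that overlap a gene on the same strand or a snoRNA. Counts and medians cover all 56, and the single values of 5 members are not reported here.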

Additional observations from a re-analysis of the deposited data

How the results depend on the processing

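The count of RPS transcripts called lower at 42°C than at 30°C (25 of 56) was 39 of 46 at a minimum mean of 50 counts, 36 with DESeq2, 26 with RLE size factors, 32 with total counts, 33 without a count minimum and 34 with the clone as a replicate block, and ran between 8 and 25 with 1 library left out (8 without the 30°C library of replicate 4, 16 without the 42°C library of replicate 3). With the transcripts tested kept the same, an alternative added after seeing the data, it ran between 0 and 21. The median log2 fold change ran between -2.80 and -2.22, and 0 members were called higher in any of these. The block ended no call and added 9. Over all transcripts, the 98 lower were 165 with DESeq2 and 33 (0 with the same transcripts) without the 30°C library of replicate 4. The 108 higher were 174 without a count minimum and 193 without the 30°C library of replicate 3.

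The direction changed for 3 members, none of them called. With 1 library left out, the log2 fold change of RPS20 ran between -1.31 and 0.0501, and was 0.0501 (0.00733 with the same transcripts) without the 42°C library of replicate 3. That of RPS22B ran between -1.39 and 0.53, and was 0.53 (0.51) without the 30°C library of replicate 4. That of RPS28B ran between -1.81 and 0.36, and was 0.36 (0.32) without the 42°C library of replicate 3 and 0.0276 (0.0469) without the 30°C library of replicate 3. The cause was not tested.

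Against the control, TMM in place of total counts gave 0 lower (17) and 1 higher (0) at 42°C, and 0 lower (3) and 4 higher (0) at 30°C. The other alternatives gave 15 to 25 lower at 42°C. At 30°C, 6 were lower with DESeq2 and 7 with only the 3 libraries compared, which also gave 2 higher, and the count ran between 0 and 6 with 1 library left out (0 without either 30°C library). Over all transcripts, TMM gave 4 lower (101) and 217 higher (35) at 42°C and 1 lower (23) and 98 higher (12) at 30°C, where DESeq2 gave 141 lower and 25 higher.

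The share on RPS transcripts differed by -3.62 percentage points, by -2.98 without members that overlap another gene and by -5.05 as a share of TPM, and by -3.84 to -3.40 with 1 library left out. The 15 pairs with separate ratios were 15 with 1 added to each count and 16 by direction within clones. The planned search for a motif in the leaders, whole or over the last 100 bases, was not run, because no sequence was given here. The control's 3921 counts limit every comparison with it, and 2 libraries a temperature limit the rest.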
